A study of Mus musculus with 6 samples.

Results

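Alpha and beta tubulin are the paired subunits of microtubules, and the mouse genome encodes several near-identical versions (isotypes) of each. The 10 genes described here are the alpha isotypes Tuba1a, Tuba1b, Tuba1c and Tuba4a and the beta isotypes Tubb2a, Tubb2b, Tubb3, Tubb4a, Tubb4b and Tubb5. They were taken by gene symbol from a table of read counts for 22851 genes. All 10 passed the filter on low counts, which 14243 genes passed.

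The libraries came from radial glial cells, the neural stem cells around the brain ventricles, isolated from the brains of C57BL/6J mice at postnatal days 0 to 3. The cells were grown with 10% serum and then kept without serum for 6 days, which turns many of them into ependymal cells carrying bundles of motile cilia. One group of 3 libraries is wild type (WT), and the other group of 3 is from Edf1 knockout (KO) mice made with CRISPR/Cas9, with no driver line or tissue restriction named. Each genotype is described as having 3 biological replicates, and whether mice were pooled for a culture is not given in the sources used here. Library totals were 13071766 to 28087006 counts. Edf1, which encodes a transcriptional coactivator that also binds collided ribosomes, was at 80.1 to 85.8 CPM in WT and 9.83 to 13.2 CPM in the KO, so the labels and the targeted gene matched in all 6 libraries. CPM is the read count of a gene scaled to the size and composition of its library (TMM scaling).

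Tubulin dimers are built in several steps. Prefoldin and the ring-shaped chaperonin TRiC fold the new chains, and tubulin cofactors then join an alpha to a beta chain. The amount of tubulin mRNA is also regulated by its product: when free dimers are plentiful, the factor TTC5 recognises the start of a nascent tubulin chain and the mRNA is degraded on the ribosome. The axoneme of a motile cilium is a large consumer of tubulin, and Tubb4b encodes the beta isotype best known from the axonemes of multiciliated cells. Most isotypes differ mainly in the acidic tail at the end of the protein, where modifying enzymes and motors bind.

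How alike the isotypes are sets how well reads can be assigned to them, so their coding sequences are shown first. Across the 6 pairs of alpha genes, coding identity ran from 84.7% (Tuba1a and Tuba4a) to 98.3% (Tuba1a and Tuba1b). Across the 15 beta pairs it ran from 81.4% (Tubb3 and Tubb5) to 96.5% (Tubb2a and Tubb2b). The last 60 coding bases before the stop codon, which encode the acidic tail, differ between most beta isotypes, though Tubb2a and Tubb2b are 95% identical there. Those of the beta genes whose level changed, and of Tubb5 for comparison, are given 5′ to 3′ from the GENCODE M21 transcripts, with capitals at bases that differ from Tubb5 in a pairwise alignment.
Tubb5: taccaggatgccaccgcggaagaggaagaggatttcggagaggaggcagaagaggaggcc
Tubb4b: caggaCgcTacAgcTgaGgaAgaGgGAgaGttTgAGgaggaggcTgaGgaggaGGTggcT
Tubb4a: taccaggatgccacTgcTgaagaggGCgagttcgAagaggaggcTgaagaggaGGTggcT
Tubb3: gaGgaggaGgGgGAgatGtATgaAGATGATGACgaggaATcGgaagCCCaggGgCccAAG

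Tubb4b differed from Tubb5 at 19, Tubb4a at 10 and Tubb3 at 29 of the 60. The opening bases of the coding sequence, which encode the stretch that TTC5 reads, were atgcgtgagtgc in Tuba1a, atgagggagatc in Tubb4b and atgagggaaatc in Tubb5.

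Over whole transcripts, 77.0% of the 31-base stretches of Tuba1a, 75.4% of those of Tuba1b and 63.9% of those of Tuba1c also occur in a transcript of another gene. Most of these shared stretches lie within the trio itself. Many also occur in genes outside the 10 isotypes, such as Gm3226 (50.8% of the stretches of Tuba1a and 57.0% of those of Tuba1b). For Tubb2a and Tubb2b the shares were 56.4% and 45.9%, mostly with each other. Tubb4b shared 64.6%, but only 0.702% with another of the 10 isotypes, and its main partner is the pseudogene Tubb4b-ps1. Tuba4a, Tubb3, Tubb4a and Tubb5 shared 1.87% to 4.43%. The rule by which reads with several matches were counted is not given in the sources used here, so the split between Tuba1a, Tuba1b and Tuba1c, and between Tubb2a and Tubb2b, is uncertain, whereas reads of Tubb4b, Tubb3, Tubb4a and Tubb5 can hardly have been exchanged with another isotype.

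On GRCm38, the build named in the submitters' processing notes, Tuba1a (chr15:98949837-98953703) and Tuba1b (chr15:98931425-98934565) are neighbours on the minus strand, and Tuba1c (chr15:99029891-99038110) lies on the plus strand of the same chromosome. Tubb2a (chr13:34074274-34078007) and Tubb2b (chr13:34126748-34130466) also form a cluster. Tubb4b is at chr2:25222160-25224702, Tubb3 at chr8:123411424-123422015 and Tuba4a at chr1:75214228-75219865. Tubb4a (chr17:57080066-57087782) and Tubb5 (chr17:35833921-35838306) share a chromosome without being neighbours. The main transcript of each of the 10 genes has 4 exons. In the GENCODE M21 annotation exons of Gm49450 overlap those of both Tuba1a and Tuba1b on the same strand. On the opposite strand, Fam166a overlaps Tubb4b, Gm41396 overlaps Tuba1b and Stk16 overlaps Tuba4a, and whether reads were counted by strand is not given in the sources used here.

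Of the 10 isotypes, 4 were lower and 1 was higher in the Edf1 KO by edgeR (quasi-likelihood test, Benjamini-Hochberg adjusted over all tested genes, threshold 0.05), and 5 did not pass. Tubb4b, Tuba1b, Tuba1a and Tubb3 fell, and Tubb4a rose. Among all tested genes the same test called 26.9% in either direction, 14.2% lower and 12.7% higher. The WT and KO libraries did not overlap for 5 of the 10 isotypes, the 5 called, against 43.3% of all tested genes. The median log2 fold change was -0.0053 over the 10 isotypes and 0.0029 over all tested genes. In RNA from a whole culture, fewer cells of a type and less RNA per cell cannot be told apart.

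**Figure D1:**
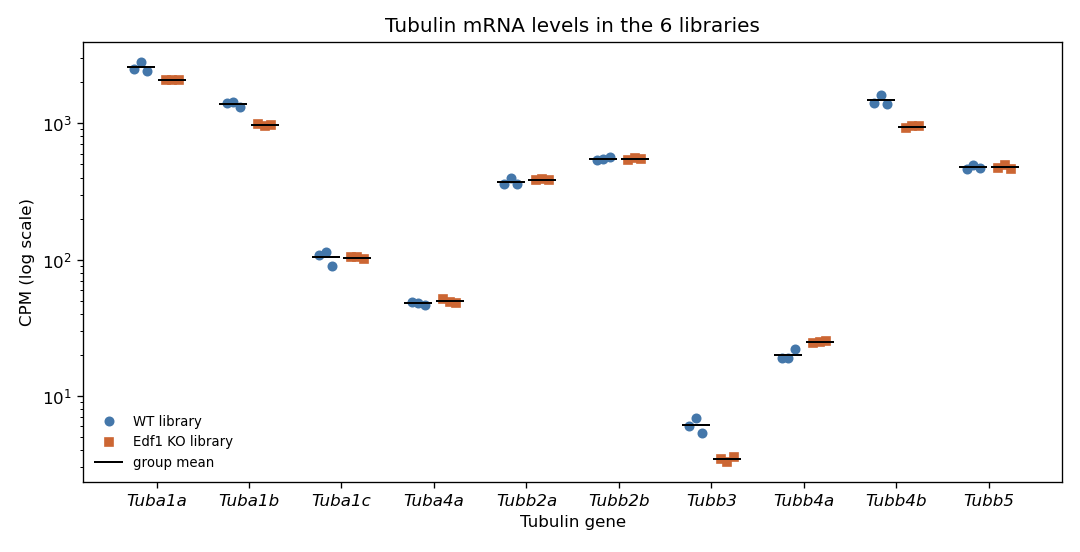
Level of each tubulin isotype in CPM (log axis) in each WT library (circles) and each Edf1 KO library (squares), with the group mean as a line. For Tuba1a, Tuba1b, Tubb3 and Tubb4b the 3 KO libraries lie below the 3 WT libraries, for Tubb4a they lie above, and for the other 5 the groups overlap.

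Tubb4b, a beta isotype known from axonemes, had 1415, 1613 and 1378 CPM in WT replicates 1, 2 and 3. It had 922, 949 and 949 CPM in KO replicates 1, 2 and 3. Every KO library was below every WT library, and the KO mean was 64.0% of the WT mean. The log2 fold change was -0.64 (95% interval -0.77 to -0.52, SE 0.058, edgeR adjusted p = 5.63e-06). WT replicate 2, the shallowest library, had the highest value. Without it the change was -0.57 (edgeR adjusted p = 2.80e-10), still called.

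Tuba1b, a widely expressed alpha isotype, had 1401, 1438 and 1316 CPM in WT and 988, 958 and 974 CPM in the KO. The groups were far apart relative to their spread, and the KO mean was 70.3% of WT, a log2 fold change of -0.51 (edgeR adjusted p = 6.41e-06, SE 0.046). Tuba1a, the main alpha isotype of the developing brain, had 2514, 2793 and 2433 CPM in WT and 2089, 2062 and 2073 CPM in the KO. Its KO mean was 80.4% of WT, a log2 fold change of -0.31 (edgeR adjusted p = 0.000816, SE 0.053), and the KO libraries again all lay below the WT libraries.

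Tubb3, the isotype used as a marker of neurons, was the least abundant of the 10. It had 161, 89 and 99 raw counts in WT and 56, 59 and 102 in the KO, which is 6.06, 6.91 and 5.35 CPM against 3.44, 3.29 and 3.61 CPM. The raw counts overlap because the libraries differ in depth, while the CPM values do not. Its log2 fold change of -0.81 (edgeR adjusted p = 0.00225, SE 0.16) had the widest 95% interval of the 10, from -1.15 to -0.47.

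Tubb4a, an isotype of neurons and oligodendrocytes, was the member that rose. It had 19.1, 18.9 and 22.0 CPM in WT and 24.5, 24.7 and 25.2 CPM in the KO, with the lowest KO library above the highest WT library. The log2 fold change was 0.31 (edgeR adjusted p = 0.0156, SE 0.083). Tubb4a was no longer called without WT replicate 1 (0.27, edgeR adjusted p = 0.0784), without KO replicate 2 (0.31, edgeR adjusted p = 0.0501) and without KO replicate 3 (0.30, edgeR adjusted p = 0.0599). Over its 13 alternatives the edgeR, DESeq2 or limma adjusted p ran from 0.00747 to 0.0784.

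The other 5 isotypes did not pass, and their intervals bound how large a change could have been. Tubb5, a widely expressed isotype of dividing cells, had 464, 496 and 467 CPM in WT and 471, 492 and 462 CPM in the KO (log2 fold change -0.0029, 95% interval -0.10 to 0.099, edgeR adjusted p = 0.972). Tubb2b, an isotype of neural progenitors and young neurons, had 542 to 565 CPM in WT and 541 to 556 CPM in the KO (95% interval -0.096 to 0.089). Tubb2a, its neighbour, had 360 to 394 CPM in WT and 381 to 389 CPM in the KO (log2 fold change 0.051, 95% interval -0.053 to 0.16). Tubb2a passed without WT replicate 2, at 0.094 (edgeR adjusted p = 0.0365), and in no other alternative. Tuba4a, the alpha isotype encoded without a final tyrosine, had 46.3 to 49.3 CPM in WT and 48.2 to 51.1 CPM in the KO (95% interval -0.084 to 0.17). Tuba1c had 89.5 to 114 CPM in WT and 102 to 105 CPM in the KO (95% interval -0.18 to 0.16), the widest of these 5. For Tubb5, Tubb2b and Tuba1c the sign of this near-zero value depended on the scaling.

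**Figure D2:**
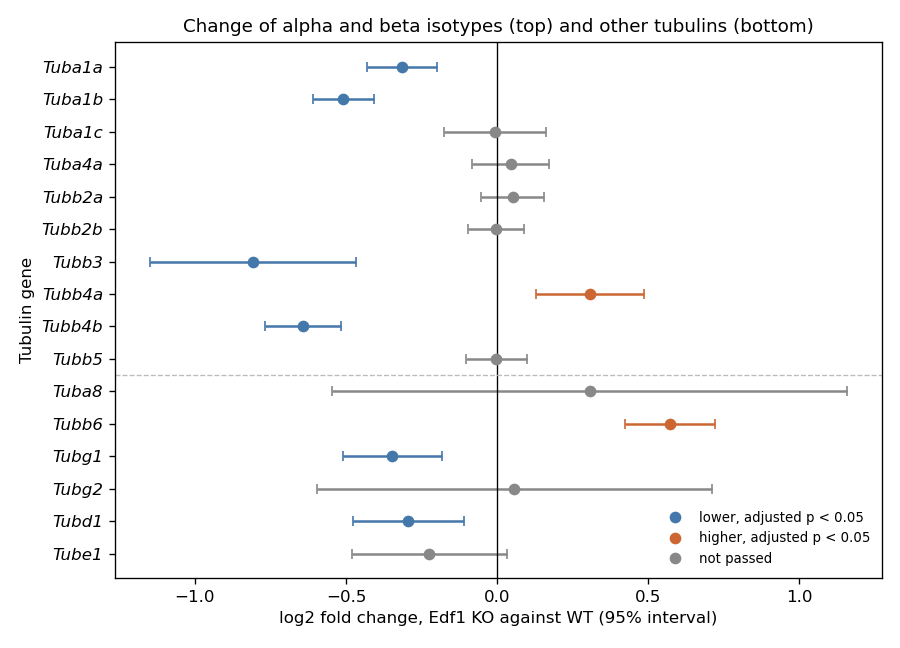
Log2 fold change of Edf1 KO against WT (points) with its 95% interval (bars) for the 10 alpha and beta isotypes above the dashed line and 6 other tested tubulins below it. Tubb4b, Tuba1b, Tuba1a and Tubb3 lie below 0 and Tubb4a above, and the intervals of the other 5 isotypes include 0.

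Summed over its isotypes, alpha tubulin had 4073, 4392 and 3885 CPM in WT and 3232, 3173 and 3197 CPM in the KO, so the KO mean was 77.8% of WT. Reads exchanged among the 4 alpha isotypes cancel in this sum, but reads exchanged with genes outside them, or left uncounted, do not. Beta tubulin had 2808, 3071 and 2798 CPM in WT and 2344, 2414 and 2373 CPM in the KO, or 82.2% of WT. In both pools the 3 KO libraries lay below the 3 WT libraries. As a share of all counts, the 4 alpha genes took 0.387% to 0.433% in WT and 0.318% to 0.325% in the KO. Of the fall in summed alpha CPM, Tuba1a made up 55.2% and Tuba1b 44.9%. Tubb4b alone made up 102.5% of the fall in summed beta CPM, since the other 5 beta genes together were slightly higher in the KO.

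Levels of different genes were compared as CPM per kilobase of the longest protein-coding transcript. In WT the order from high to low was Tuba1a (1431 ± 105 by its mean and SD), Tubb4b (919 ± 78.95), Tuba1b (795), Tubb2b (252), Tubb2a (231), Tubb5 (179.7), Tuba1c (52.5), Tuba4a (16.8), Tubb4a (8.99) and Tubb3 (3.27 CPM per kilobase, n = 3 throughout). The KO had the same order, from Tuba1a at 1151 to Tubb3 at 1.84 CPM per kilobase, and on this length no neighbours in the order overlapped in either genotype. With the merged exon length of each gene instead, Tuba1b stood above Tubb4b in both genotypes (739 against 703 in WT and 519 against 450 CPM per kilobase in the KO), and the libraries of Tubb2a and Tubb2b overlapped in both (239.1 CPM per kilobase for each in the KO), so the order within these pairs depends on the length used. Among 22164 genes with a length, Tuba1a ranked between 16 and 21 in the 6 libraries and Tubb4b between 27 and 58.

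On this per-length scale the make-up of the beta pool differed between the genotypes. The size of each share carries the same uncertainty of how reads with several matches were counted. Tubb4b made up 57.3%, 59.3% and 56.2% of it in WT and 46.1%, 46.1% and 46.7% in the KO, a difference of -11.3 percentage points. Tubb2a held 14.5% ± 0.10 in WT and 18.8% ± 0.074 in the KO, Tubb2b 15.9% ± 1.15 and 19.8% ± 0.037, and Tubb5 11.3% ± 0.25 and 14.1% ± 0.35 (mean ± SD, n = 3). Shares sum to the whole, so a lower share of Tubb4b raises the others, and the levels of these 3 genes themselves did not pass the test. In the alpha pool Tuba1a held 61.4% to 63.3% in WT and 64.5% to 64.9% in the KO, and Tuba1b held 34.7% ± 0.88 and 31.4% ± 0.21. The alpha-to-beta ratio per kilobase was 1.44 ± 0.029 in WT and 1.40 ± 0.033 in the KO, and the libraries of the genotypes overlapped.

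**Figure D3:**
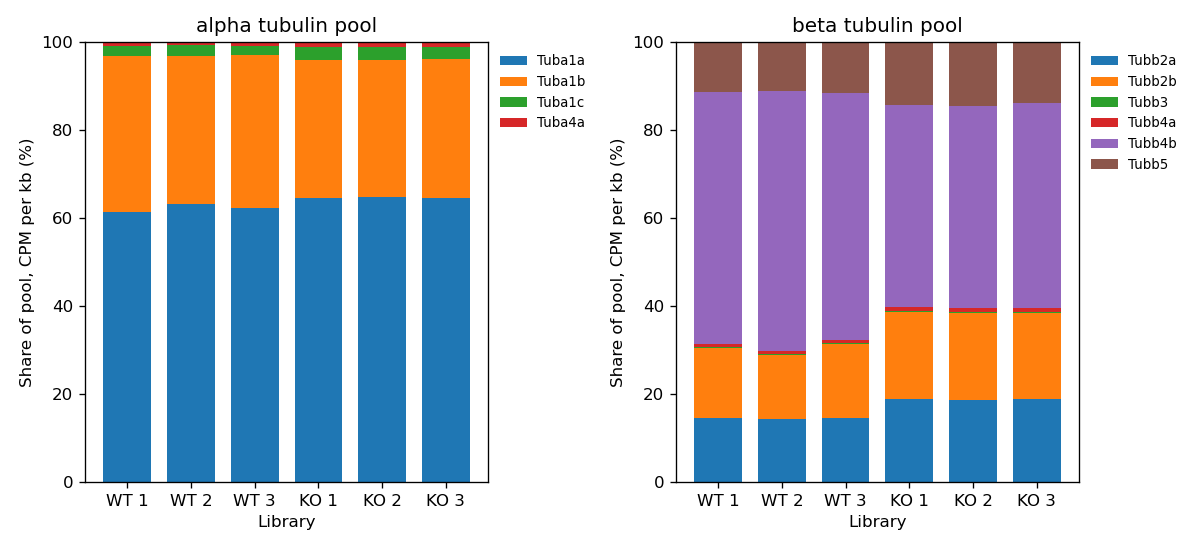
Share (%) of each isotype in the alpha pool (left) and the beta pool (right), from CPM per kilobase, in each of the 6 libraries. The Tubb4b part of the beta pool is 56.2% to 59.3% in the WT libraries and 46.1% to 46.7% in the KO libraries.

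Ratios between isotypes within a library need no scaling between libraries or gene lengths, and 4 pairs were tested by two-sided exact permutation over the libraries. With 3 libraries against 3 the smallest p this test can give is 0.1, so none can pass 0.05. The log2 ratio of Tubb4b to Tubb5 was 1.61, 1.70 and 1.56 in WT and 0.97, 0.95 and 1.04 in the KO, a difference of -0.64 (exact p = 0.1, Benjamini-Hochberg adjusted 0.133 over the 4 pairs). Tubb3 to Tubb5 differed by -0.82 (exact p = 0.1, adjusted 0.133). Tuba1a to Tuba1b was 0.90 ± 0.058 in WT and 1.09 ± 0.014 in the KO (mean ± SD, n = 3), a difference of 0.20 (exact p = 0.1, adjusted 0.133). In each of these 3 pairs the genotypes did not overlap. For Tuba1a and Tuba1b the ratio also carries the uncertainty of how their reads were split. Tubb2a to Tubb2b differed by 0.055 and the genotypes overlapped (exact p = 0.4, adjusted 0.4).

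**Figure D4:**
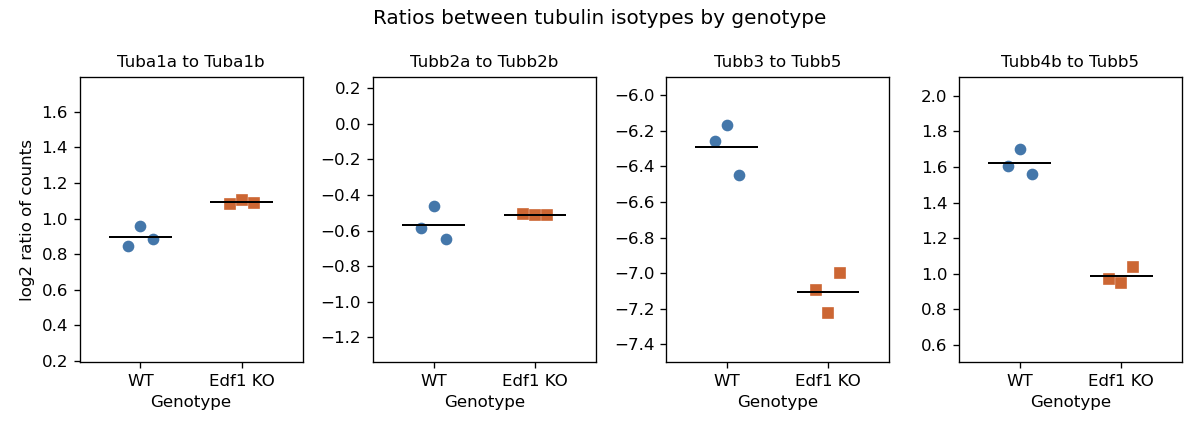
Log2 ratio of the counts of 2 isotypes in each WT library (circles) and each Edf1 KO library (squares), with group means as lines; all panels span the same range on the vertical axis. The genotypes separate for Tuba1a to Tuba1b, Tubb3 to Tubb5 and Tubb4b to Tubb5, and overlap for Tubb2a to Tubb2b.

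Markers of the cell types in the culture were read beside these changes. For comparison with the counts below, 14.2% of all tested genes were called lower and 12.7% higher. Of 29 tested axoneme genes 27 were lower and 0 were higher in the KO by edgeR (0 also at an unadjusted p under 0.05). The median log2 fold change of the axoneme genes was -0.61, beside -0.64 for Tubb4b. The microglia list below had the same median of -0.61, so this value is not particular to axoneme genes. The axoneme list summed to 4406 to 4416 CPM in WT and 2657 to 2953 CPM in the KO. Its largest fall was that of Spag17 (log2 fold change -1.78), a central pair gene. As a description, the log2 ratio of Tubb4b to Foxj1, the regulator of motile cilia genes, was 0.90 ± 0.044 in WT and 0.85 ± 0.026 in the KO, with overlapping ranges. The tested axoneme genes ran from -1.78 to 0.046 in log2 fold change, so a ratio to one of them could differ in either direction. The part of ciliated cell number in the fall of Tubb4b was not tested.

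Beside Tubb3, the neuron list overlapped between genotypes in its summed level. Its 18 genes summed to 57.0 to 61.0 CPM in WT and 57.4 to 62.4 CPM in the KO. Most of this sum is Stmn2 (31.2 to 33.6 CPM in WT and 28.2 to 32.1 CPM in the KO) and Gap43 (10.3 to 12.3 and 10.3 to 13.7 CPM). Neither passed, and the sum says little of the less abundant genes. In this list 7 of the 18, among them Snap25, Nefl and Gad2, had too few counts to be tested. Of 11 tested neuron genes 1, Dcx, was lower (log2 fold change -1.61, from 10 to 20 counts in WT to 4 to 7 in the KO), and 0 were higher by edgeR (2 at an unadjusted p under 0.05). Over these 11 genes the median log2 fold change was 0.096, with 5 genes below 0, so Dcx does not describe the list as a whole. Beside Tubb4a, the oligodendrocyte list summed to 453 to 493 CPM in WT and 423 to 441 CPM in the KO, with the myelin gene Mobp at 0 counts in all libraries. Most of this sum is Cnp, which was lower (329 to 371 CPM in WT and 291 to 298 CPM in the KO, log2 fold change -0.25). Of the other 7 tested genes Cspg4, which is also in the mural list below, was higher (log2 fold change 0.38), and Olig1 overlapped between genotypes (61.9 to 68.5 CPM in WT and 67.1 to 73.6 CPM in the KO). Over the 8 tested genes of the oligodendrocyte list the median log2 fold change was 0.0040, with 4 genes below 0, so the lower sum does not describe the list as a whole. The Cspg4 call was lost without WT replicate 3 or without KO replicates 1 or 3, which left 1 called gene each time.

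Microglia genes summed to 2225 to 2369 CPM in WT and 1485 to 1530 CPM in the KO, with 12 of 14 lower (lowest Gpr34, log2 fold change -1.78). Fibroblast, mural and endothelial genes summed to 587 to 626 CPM in WT and 743 to 828 CPM in the KO. Most of this sum is Acta2, which was higher (459 to 496 CPM in WT and 564 to 607 CPM in the KO). Of the 10 tested genes 8 were higher, Cspg4 among them (Dcn most, 1.25), and Flt1 was lower (-1.58). Radial glia and astrocyte genes summed to 12316 to 12736 CPM in WT and 13116 to 13650 CPM in the KO. The largest part of this sum is Vim (6016 to 6648 CPM in WT and 6750 to 7009 CPM in the KO), which did not pass. Of the 17 genes 3 were higher (Aldh1l1 most, 0.49) and 3 lower (S100b most, -0.65), so the higher sum does not describe the list as a whole. Without WT replicate 2, 10 of these 17 were called, 5 in each direction. Cell cycle genes summed to 1153 to 1195 CPM in WT and 1169 to 1222 CPM in the KO, which overlap, with 7 of 19 higher (Mki67 most, 0.97) and 6 lower (Aurka most, -0.58). The part of these cell types in the tubulin changes was not tested.

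Of the 10 other tubulin genes, 6 could be tested. Tubb6, a beta isotype of non-neural cells, had 34.8, 37.4 and 35.1 CPM in WT and 54.0, 56.2 and 49.3 CPM in the KO, a log2 fold change of 0.57 (edgeR adjusted p = 6.14e-05, SE 0.069), and so rose while Tubb4b fell. The gamma tubulin gene Tubg1, which nucleates microtubules at centrosomes and basal bodies, had 41.3, 48.3 and 46.4 CPM in WT and 34.3, 37.8 and 34.6 CPM in the KO (log2 fold change -0.35, edgeR adjusted p = 0.00476, SE 0.076). Tubd1, which encodes the delta tubulin of centriole triplets, was lower at -0.29 (edgeR adjusted p = 0.0216, SE 0.084), and this call was lost without KO replicate 1 (edgeR adjusted p = 0.0707) or KO replicate 3 (edgeR adjusted p = 0.105). The epsilon tubulin gene Tube1, at -0.22 (SE 0.12), did not pass. Tuba8 and Tubg2 had group means of 1.01 to 1.95 CPM, did not pass, and changed sign when 1 library was left out. Tuba3a had at most 3 counts, Tuba3b had 0 counts, and Tubal3 and Tubb1 had at most 12 and 5 counts in any library.

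Among genes that fold tubulin and assemble its dimers, 9 of 25 were lower and 0 were higher by edgeR. The shares over all tested genes were 14.2% lower and 12.7% higher. The median log2 fold change of this list was -0.15 against 0.0029 over all tested genes. At an unadjusted p under 0.05, 12 were lower and 0 were higher. Of the 8 TRiC subunits 6 were called lower, and all 8 had values below 0, from -0.32 (Cct7) to -0.10 (Cct8). Cct7 had 296, 320 and 285 CPM in WT and 234, 240 and 246 CPM in the KO (edgeR adjusted p = 0.000646, SE 0.052). Of the 6 prefoldin subunits Pfdn2 (-0.28) and Pfdn6 (-0.22) were lower. Of the 9 cofactor genes and their relatives only Tbccd1 (-0.21) was called. These changes are small, and the count of 9 fell to 5 without WT replicate 1 and to 3 without any one of the KO replicates. Over the 6 fits without 1 library the count ran from 3 to 10. The cause of this spread was not tested.

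**Figure D5:**
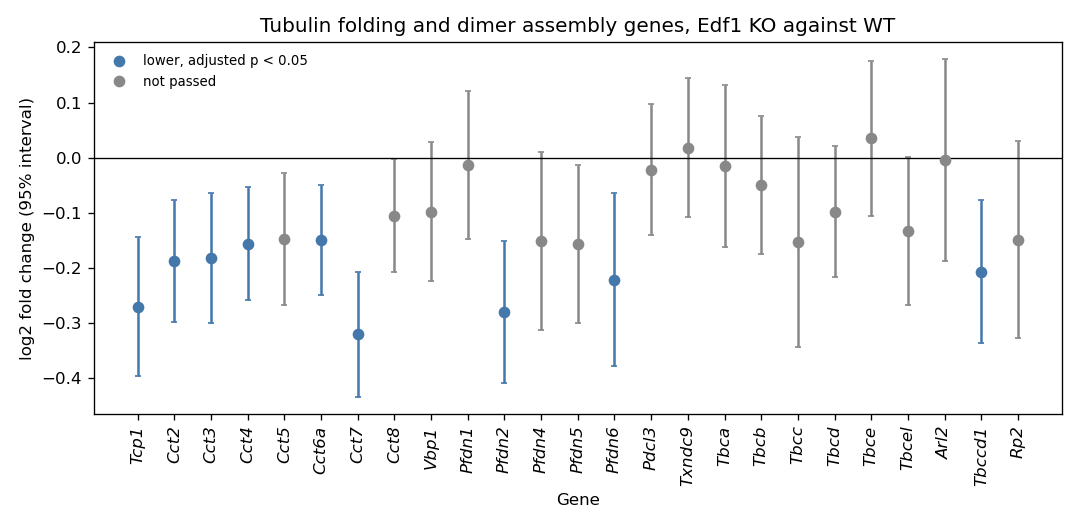
Log2 fold change of Edf1 KO against WT (points) with its 95% interval (bars) for 25 genes of tubulin folding and dimer assembly. The TRiC subunits, Tcp1 to Cct8 on the left, all lie below 0, from -0.32 to -0.10.

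In the autoregulation list 1 of 12 genes was called, against 26.9% of all tested genes. This was Ttc5, which encodes the factor that reads nascent tubulin. It had 91.8, 99.5 and 87.6 CPM in WT and 76.4, 77.96 and 74.9 CPM in the KO, without overlap, a log2 fold change of -0.28 (edgeR adjusted p = 0.00427, SE 0.060). Without WT replicate 2, 2 genes were called. Scaper, which links TTC5 to the mRNA decay machinery, did not pass (0.050, SE 0.060), nor did any of the 10 subunits of the CCR4-NOT deadenylase, whose values ran from -0.11 to 0.075.

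In the gamma-tubulin ring complex list Pcnt (-0.35), a centrosome scaffold, and Cdk5rap2 (-0.25) were lower of 11, against 14.2% of all tested genes. None of the 5 GCP subunits passed. Of 30 microtubule-associated and plus-end genes 8 were lower and 2 higher, against 14.2% and 12.7% of all tested genes. The median of this list was -0.017. The largest fall was that of Stmn4 (-1.74), a stathmin that binds free tubulin dimers, at only 0.97 CPM in WT and 0.30 CPM in the KO. Ckap5, a microtubule polymerase, was abundant and lower in each KO library (1084, 1098 and 1108 CPM in WT and 878, 856 and 914 CPM in the KO, log2 fold change -0.31). Map7, which recruits kinesin-1, rose most (0.39), and its call was lost without WT replicate 1, KO replicate 2 or KO replicate 3. Without KO replicate 2 the count of called genes in this list was 6. Cdk5rap2 and Ckap5, like Cct8, Pfdn2, Pfdn6 and Tbccd1 above, were chosen after their values were seen.

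The region before the start of Tubb4b was examined because this gene made up the fall of the beta pool. RefSeq promoter windows were matched for 9 of the 10 isotypes, without Tubb2b. The 250 bases before the RefSeq start of Tubb4b (chr2:25224703-25224952, GRCm38.p6, minus strand) and of Tubb5 (chr17:35838302-35838551, GRCm38.p6, minus strand), whose level did not pass the test, are given 5′ to 3′ with capitals at matches to the searched motifs.
Tubb4b: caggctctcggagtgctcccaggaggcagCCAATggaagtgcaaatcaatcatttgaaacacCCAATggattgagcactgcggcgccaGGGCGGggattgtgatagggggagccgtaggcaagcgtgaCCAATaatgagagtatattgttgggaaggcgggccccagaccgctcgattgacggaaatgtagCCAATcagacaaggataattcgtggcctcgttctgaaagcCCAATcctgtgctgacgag
Tubb5: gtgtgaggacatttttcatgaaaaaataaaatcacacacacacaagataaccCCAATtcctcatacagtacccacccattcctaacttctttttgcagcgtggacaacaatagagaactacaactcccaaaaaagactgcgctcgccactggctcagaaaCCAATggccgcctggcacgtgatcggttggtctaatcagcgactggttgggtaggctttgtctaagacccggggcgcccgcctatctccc

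The motifs searched on both strands were CCAAT (the CCAAT box), GGGCGG (the GC box), TATAAA (the TATA box), GTTGCC (part of the RFX binding motif), TGTTTAC (a forkhead core) and TTTCGCGC (an E2F core). No motif of this set contains another. The Tubb4b window held 5 CCAAT boxes and 1 GC box. The Tubb5 window held 2 CCAAT boxes, and Tuba1a, Tuba1c and Tubb3 held 1 each. At least 1 CCAAT box was found in 33.8% of 32851 promoter windows of the same length, and at least 5 in 0.213% of them, a cutoff chosen after the Tubb4b count was seen. GTTGCC was found in Tuba1c alone of the 9, against 10.4% of all windows, and the forkhead and E2F letters in none, against 3.17% and 0.256%. Tuba1b, which also fell, held no CCAAT box. For several isotypes, Tuba1a and Tuba1b among them, the GENCODE start lies upstream of the RefSeq start, so part of the window is transcribed. A match is a description of the letters and not a binding site.

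Genes with the pattern most like those of the extreme members were found by Pearson correlation of log2 CPM over the 6 libraries, among 11011 genes. Since the libraries fall into 2 genotypes, such values are high for many genes and are a description only. For Tubb3, the member with the largest fall, they included Ube2t and Nnat (r = 0.998 for each). Nnat had 247, 297 and 228 CPM in WT and 145, 143 and 152 CPM in the KO. Like Tubb3 it was highest in WT replicate 2 and lowest in WT replicate 3 among the WT libraries. For Tubb4a, the member that rose, they were Mettl1, Mapk7 and Esco2 (r of 0.993 to 0.996), each highest among the WT libraries in WT replicate 3, as Tubb4a was. Genes chosen for a high correlation over these libraries tend to share such an order, so it adds no separate likeness.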

How the data were processed

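RNA was measured as deposited counts of reads per gene symbol, 1 column per library and whole numbers throughout. FastQC 0.11.2, cutadapt 1.11, HISAT2 2.1.0 and the build GRCm38 are named in the submitters' processing notes; the counting program, annotation, strand setting and treatment of multi-mapping reads are not given in the sources used here. The table had 0 rows naming no gene and 0 unused columns of samples. Counts were analysed in R 4.3.3 with edgeR 4.0.16: filterByExpr, TMM scaling (factors 0.985 to 1.01), and the quasi-likelihood test of KO against WT over all 6 libraries with no covariate, Benjamini-Hochberg adjusted over 14243 genes at 0.05. Standard errors are the log2 fold change over the square root of F, and 95% intervals use the moderated degrees of freedom. The log2 CPM values use a prior count of 2. Alternatives were DESeq2 1.42.0, limma 3.58.1 (voom), other scalings and filters, the replicate number as a block, a threshold of 0.01 and each library left out. The edgeR fits with TMM scaling, with DESeq2 scaling and with the replicate block, and the DESeq2 and voom fits, were tested on simulated data. The fits with library size only, with other filters and without 1 library were not. Lengths, exons and 31-base stretches came from GENCODE M21, with a length for 22164 of 22851 symbols, and promoters from RefSeq (GRCm38.p6). Members, gene lists and named genes were chosen with earlier results of these data known. Genes named are the 10 isotypes, Edf1, tested other tubulins, Ttc5, Scaper, and in each list the called genes with the largest rise and fall; for the called isotypes with the largest rise and fall, the 3 genes of most similar pattern with a mean log2 CPM of at least 3 were named too. Foxj1, Olig1, Stmn2, Gap43, Vim, Acta2 and the untested genes named were chosen outside this rule, after their values were seen. Protein sequences were not used here. One gene that the rule names, and the tail sequences of the alpha isotypes, are not reported here.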

Additional observations from a re-analysis of the deposited data

How the results depend on the processing

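At a threshold of 0.01 the count of changed genes moved from 3833 to 2213 (965 higher, 1248 lower), and Tubb4a lost its call, which left 4 isotypes. Over the other scalings, filters and tools, the same 5 isotypes were called each time. Leaving out 1 library gave 4 to 6 called isotypes and 2658 to 4340 changed genes. Tubb4b (-0.68 to -0.57), Tuba1b (-0.54 to -0.48), Tuba1a (-0.35 to -0.25) and Tubb3 (-0.89 to -0.73) kept direction and call in all 13 alternatives each. Isotypes near 0 changed sign. Tuba1c was 0.0070 with library size only, 0.0013 by voom, 0.0010 with the replicate block and -0.10 to 0.056 without 1 library. Tubb2b was 0.010 with library size only, 0.0012 with a mean of at least 50 counts and -0.013 to 0.018 without 1 library. Tubb5 was 0.011 and 0.0022 in the same settings and -0.028 to 0.027 without 1 library. Tuba8 (-0.24 to 0.66) and Tubg2 (-0.31 to 0.26, and -0.044 by voom) did so too. The cause was not tested. Library size only shifted the median log2 fold change of all genes to 0.016, and the share of lower calls moved from 52.9% to 49.7%.

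Counts of called list genes without 1 library ran from 3 to 10 for tubulin folding, 1 to 2 for autoregulation, 6 to 12 for microtubule-associated genes, 1 to 2 for the oligodendrocyte list and 6 to 10 for radial glia. Merged exon lengths, chosen after the data were seen, gave share differences of 0.19 points for Tuba4a, 4.68 for Tubb2a, -0.075 for Tubb3 and 2.40 for Tubb5, since each length rescales its gene. The replicate block called the same 5 isotypes and 4065 genes in all, 3683 of which were also called without it. Same-numbered libraries deviated together with correlations of only 0.069, 0.060 and 0.037, so no pairing was assumed. At 13071766 to 28087006 counts per library, 4 of the 10 other tubulins and 7 of the 18 neuron genes had too few counts to be tested.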
